A study of Mus musculus with 6 samples.

Results

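In mouse embryos labelled with 4-thiouridine (S4U), 27 of 23259 gene names were nearly without reads in zygotes and well covered at the 2-cell stage. Their 2-cell reads were rich in T-to-C mismatches, by which the label is read. The 27 genes were chosen from the read counts themselves. A gene was kept if the wild-type (WT) zygote column held at most 20 of its reads, the WT 2-cell column held at least 200, and at least 10% of its 2-cell reads had a T-to-C mismatch. Histone, Zfp, Slc, Tdpoz, Dub, Zscan4, Rprl, Obox and Nlrp names were left out. Of 275 genes that met both limits on reads, 27 met the limit on the T-to-C share and 248 did not. The 2-cell gain and the high share of the 27 genes are therefore how they were found and not results, and their values in those columns are given as a description without a test.

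At fertilization the mouse embryo carries RNA stored in the oocyte, and its own genome becomes active in a minor wave in the zygote and a major wave at the 2-cell stage. S4U is a uridine analogue that cells build into RNA as they transcribe. Iodoacetamide alkylates the incorporated base, which is then read as C in place of T, so that RNA transcribed in the labelling period contributes T-to-C reads. Many 2-cell genes belong to multi-copy families that are silent in most other tissues, and others are housekeeping genes transcribed anew.

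The groups were WT 2-cell embryos, Pabpn1l-null zygotes and WT zygotes, with 2 samples of 50 embryos each. PABPN1L binds poly(A) tails in the oocyte and early embryo and takes part in the removal of maternal mRNA. The shared protocol gives 2 h in 200 μM S4U from 26 h after hCG, the hormone that triggers ovulation, in embryos of mated females. It speaks of zygotes for all 6 samples, and the labels leave out when 2-cell embryos were taken, the strain, the age and which parent carried the null allele.

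The deposited table gives each group a single column of reads and a single column of T-to-C reads, so no difference has a replicate check and no test was made. Totals were 4020444 reads in 2-cell embryos, 1270347 in Pabpn1l-null zygotes and 3001472 in WT zygotes, and 4.54%, 3.86% and 3.03% of them were T-to-C reads in the same order of groups. Pabpn1l had 14, 4 and 47 reads in that order, and the labels do not say which part of the gene the null allele lacks. The marker sums that follow are reads as counted, not scaled to the column totals, of which that of the null zygotes is the smallest. The 10 oocyte markers summed to 12273 reads in 2-cell embryos, 22355 in null zygotes and 40790 in WT zygotes. The table holds 6 of the 7 markers of 2-cell embryos, and they summed to 7045, 21 and 195 reads in that order. Most 2-cell reads of the list were of Zfp352, with 3757, 0 and 7, and of Tdpoz4, with 2678, 0 and 0. Zscan4d had 526, 8 and 38. Dux went the other way, with 84 in 2-cell embryos, 13 in null zygotes and 150 in WT zygotes, and Tcstv1 and Tcstv3 were at 0 in every column. The 11 cumulus and granulosa markers summed to 75, 27 and 123 reads, the 8 morula and blastocyst markers to 383, 21 and 107, the 7 sperm markers to 4, 0 and 8, and the 4 blood markers found to 40, 1 and 43. Amh, Inha, Inhba, Tnfaip6 and Cyp11a1 of the cumulus and granulosa list were at 0 in every column. The highest counts of that list were of Ptgs2, with 37 in 2-cell embryos, 0 in null zygotes and 0 in WT zygotes, and of Cyp19a1, with 0, 23 and 80 in that order. The part of other cells in the values below was not tested. Intervals below are 95% intervals that count 7 reads as 1 molecule, because low counts of the null column came in clumps. Clumping was not examined in the other columns, and the intervals cover counting error only.

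The promoters of 5 of the genes are shown for the contrast between the multi-copy families and the genes with the highest T-to-C shares. Each window runs from 250 bases before to 50 bases after a RefSeq transcript start on GRCm38.p6. Gm4858 is at chr3:93068573-93068872 on the plus strand, Gm13078 at chr4:143719201-143719500 on the plus strand, Gm13109 at chr4:143950967-143951266 on the minus strand, Uap1 at chr1:170174915-170175214 on the minus strand, and Pxdn at chr12:29937786-29938085 on the plus strand, at a transcript start inside its annotated span. Capitals mark TATATAA in Gm4858 and Gm13078, and GGGCGG or its reverse complement CCGCCC in Uap1 and Pxdn. Gm13109 was searched for TATATAA and has no capitals, which says only that those letters are not in the window on either strand.
Gm4858: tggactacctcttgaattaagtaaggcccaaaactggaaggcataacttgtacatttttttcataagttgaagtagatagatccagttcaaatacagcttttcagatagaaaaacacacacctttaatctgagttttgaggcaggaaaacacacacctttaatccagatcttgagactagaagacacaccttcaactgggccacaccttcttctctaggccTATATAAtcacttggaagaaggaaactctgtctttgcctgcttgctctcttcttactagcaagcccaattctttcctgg
Gm13078: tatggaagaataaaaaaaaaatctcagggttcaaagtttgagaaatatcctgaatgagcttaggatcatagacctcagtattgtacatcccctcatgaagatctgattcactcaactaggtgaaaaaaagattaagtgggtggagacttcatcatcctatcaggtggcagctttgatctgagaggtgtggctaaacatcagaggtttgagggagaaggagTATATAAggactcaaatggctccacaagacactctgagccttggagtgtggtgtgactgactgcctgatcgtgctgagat
Gm13109: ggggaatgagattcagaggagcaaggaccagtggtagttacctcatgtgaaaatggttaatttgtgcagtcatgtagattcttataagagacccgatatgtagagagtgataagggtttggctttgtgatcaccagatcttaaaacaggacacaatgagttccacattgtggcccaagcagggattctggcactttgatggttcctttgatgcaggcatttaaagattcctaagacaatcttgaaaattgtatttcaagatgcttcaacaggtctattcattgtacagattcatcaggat
Uap1: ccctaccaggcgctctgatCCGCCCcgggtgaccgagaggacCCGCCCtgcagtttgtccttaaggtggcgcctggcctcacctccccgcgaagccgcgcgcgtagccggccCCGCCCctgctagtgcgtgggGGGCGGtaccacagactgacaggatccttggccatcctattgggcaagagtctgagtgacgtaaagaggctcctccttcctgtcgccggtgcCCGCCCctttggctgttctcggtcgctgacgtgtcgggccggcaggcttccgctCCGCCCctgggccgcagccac
Pxdn: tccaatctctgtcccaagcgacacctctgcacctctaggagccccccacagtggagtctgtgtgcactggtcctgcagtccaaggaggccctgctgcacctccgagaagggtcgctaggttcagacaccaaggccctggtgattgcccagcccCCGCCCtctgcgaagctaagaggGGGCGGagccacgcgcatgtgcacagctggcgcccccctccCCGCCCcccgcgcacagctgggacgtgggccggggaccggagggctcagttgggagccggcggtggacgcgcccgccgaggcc

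Summed over the 27 genes, 13863 reads lay in 2-cell embryos, 88 in Pabpn1l-null zygotes and 193 in WT zygotes. A single gene had 208 to 1964 reads in 2-cell embryos, with a median of 356. In null zygotes the range was 0 to 13 reads with a median of 0, and in WT zygotes it was 0 to 20 with a median of 7. After TMM scaling (a scaling by the bulk of genes), the summed level in 2-cell embryos was 55.2 times that in WT zygotes (interval 38.0 to 83.6). Past a 2-fold difference, with the lower column raised to a floor of 21 reads, 27 of 27 were higher in 2-cell embryos, as the choice of genes required. Among all 10041 genes tested, 23.8% were higher and 25.4% lower in 2-cell embryos. With RLE scaling the split over all genes moved to 2967 higher and 2031 lower and the median log2 ratio to 0.25, against 2392 and 2546 and a median of -0.03 with TMM. Each sample held 50 embryos, per the labels, and in such bulk columns the number of cells with a transcript and its level per cell cannot be told apart.

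**Figure D1:**
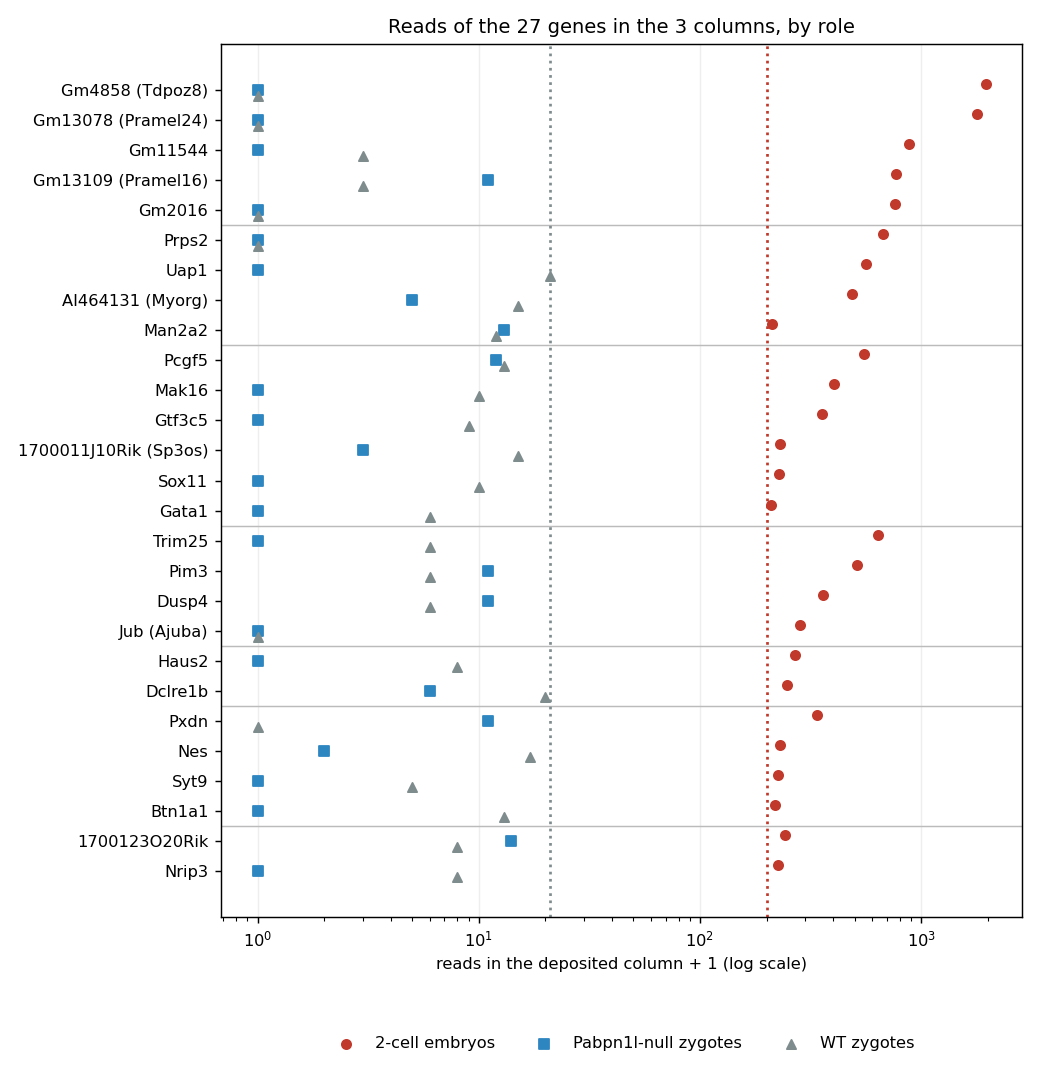
Reads of the 27 genes, plus 1, on a log axis in 2-cell embryos (circles), Pabpn1l-null zygotes (squares) and WT zygotes (triangles), grouped by role and ordered by 2-cell reads; dotted lines mark the limits of 20 and 200 reads. All circles lie between 208 and 1964 reads, and no square lies above 13.

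The T-to-C share at the 2-cell stage was 16.5% over the sum of the genes (2283 of 13863 reads, interval 14.9% to 18.2%), against 4.54% for the whole column. Those genes held 0.345% of the column's reads and 1.25% of its T-to-C reads. Gene by gene the share ran from 10.04% to 50.9%, with a median of 13.7% and quartiles of 11.4% and 18.0%. Only Pxdn, Uap1 and Haus2 exceeded 20%, and 16 genes lay under 15%. For 6 genes the interval stayed above 10%, and for the other 21 it reached below. Counting each read alone, the interval stayed above 10% for 14. A share of at least 10% was found in 11.1% of the 3410 genes with at least 200 reads in 2-cell embryos. The authors' deposited table calls 23 of the 27 genes Positive for labelling at the 2-cell stage, against 27.7% of those 3410 genes, a call made from the reads that chose the genes. Nes, 1700011J10Rik, Sox11 and Gata1 are called Negative in the authors' deposited table.

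The description of these RNAs as still being made rests on the T-to-C share. With no unlabelled embryos in the table, reads from sequencing error or from sequence differences cannot be separated from labelled ones. Below, labelled reads are therefore T-to-C reads, and labelled genes are those with a share of at least 10%. Of 282 genes with a 2-cell share of at least 10%, at least 200 reads in 2-cell embryos and at least 100 in WT zygotes, 16.7% had such a share in WT zygotes too. The 27 genes cannot be checked in that way, because their few WT zygote reads held 4 T-to-C reads in all.

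**Figure D2:**
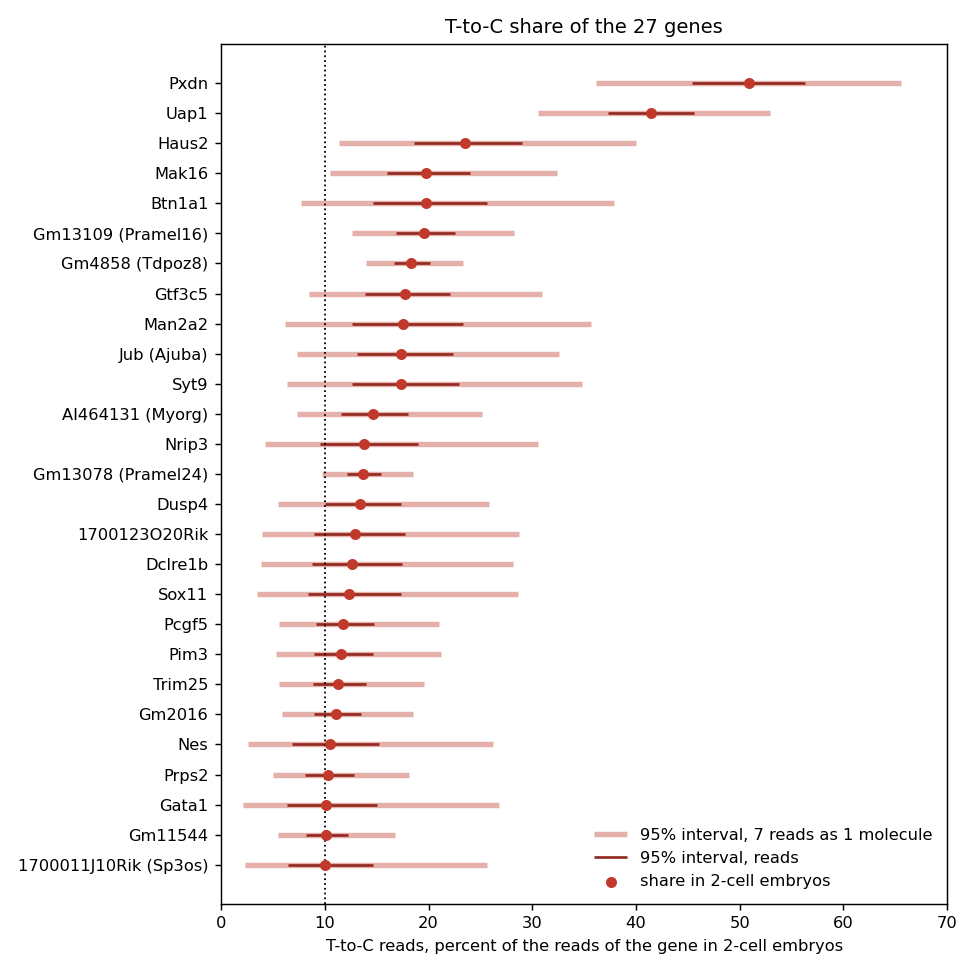
T-to-C share of each of the 27 genes in 2-cell embryos, in percent of the gene's reads, from the highest to the lowest; wide bars are 95% intervals with 7 reads counted as 1 molecule, thin bars the same on reads, and the dotted line is the 10% limit. Pxdn at 50.9% and Uap1 at 41.4% stand above the others, and 21 wide bars cross the line.

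Among the genes, 5 belong to gene families of the germline and 2-cell embryo or are predicted genes grouped with them, and they held 6172 of the 13863 reads. Their summed share was 15.1% (interval 12.8% to 17.6%). Gm4858 (chr3:93068823-93075505), annotated by RefSeq as Tdpoz8, is a member of a family of TRAF-domain and POZ-domain proteins. It had 1964 reads in 2-cell embryos, 360 of them T-to-C (18.3%, interval 14.0% to 23.4%), against 0 in null zygotes and 0 in WT zygotes. Against 0 reads in WT zygotes no ratio can be given, and the interval of the ratio of 2-cell embryos to WT zygotes ran from 58.1 upward. It has another row in the table with different counts, 265 T-to-C reads of 1293 (20.5%). Gm4858 was kept by its name, although the rule leaves out genes named Tdpoz.

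Gm13078 (Pramel24, chr4:143719451-143729158) and Gm13109 (Pramel16, chr4:143948183-143951016) are PRAME-like genes, a leucine-rich-repeat family with many copies on mouse chromosome 4. They lie 219 kb apart. Gm13078 had 1796 reads in 2-cell embryos, 246 of them T-to-C (13.7%), against 0 in null zygotes and 0 in WT zygotes, an interval of the ratio from 53.1 upward. Gm13109 had 771 reads in 2-cell embryos, 151 of them T-to-C (19.6%), against 10 in null zygotes and 2 in WT zygotes, so it was near 0 in both zygote columns. Gm2016 (chr12:87874072-87877859) had 759 reads in 2-cell embryos, 84 of them T-to-C (11.1%), against 0 in null zygotes and 0 in WT zygotes, an interval of the ratio from 22.2 upward. Gm11544 (chr11:94844831-94849593) had 882 reads in 2-cell embryos, 89 of them T-to-C (10.1%), against 0 in null zygotes and 2 in WT zygotes. No role is given for either of these last genes in the annotation used.

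The closest relatives of these genes had a wide range of shares. All 8 Tdpoz genes in the table had at least 200 reads in 2-cell embryos and at most 20 in WT zygotes. Tdpoz1 had a share of 12.1%, Tdpoz3 of 11.2% and Tdpoz4 of 10.8%, below the 18.3% of Gm4858. Gm9125 (Tdpoz9) had 191 T-to-C reads of 2825 (6.76%) and Tdpoz2 had 6 of 375 (1.60%). Tdpoz5 and Gm10697 (Tdpoz7) have identical values, 59 T-to-C reads of 3670 (1.61%), while the other Tdpoz genes have counts of their own. How reads shared by near-identical copies were counted is not stated, so the counts of Gm4858, Gm13078, Gm13109 and Gm2016 are uncertain.

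Of 29 PRAME-like genes in the table, 19 had at least 200 reads in 2-cell embryos, and 5 of the 19 had a share of at least 10%. The 3 that are not among the 27 were already abundant in zygotes. Gm13023 (Pramel25) had 755 reads in 2-cell embryos and 2775 in WT zygotes, with a 2-cell share of 47.9%. C87977 (Pramel29) had 1738 and 2279 reads with a share of 29.6%, and Gm13084 (Pramel26) had 301 and 4682 with a share of 31.6%, in the same order of groups. Among those gained at the 2-cell stage with few labelled reads, Gm12794 (Pramel19) had 7 T-to-C reads of 1242 (0.564%) and Pramel7 had 3 of 523 (0.574%). Beside Gm2016, Gm1995 had 82 of 839 (9.77%), BB287469 had 20 of 734 (2.72%) and Gm2022 had 0 of 249. Tmem92, next to Gm11544, had 139 of 1457 in 2-cell embryos (9.54%) and 39 reads in WT zygotes.

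**Figure D3:**
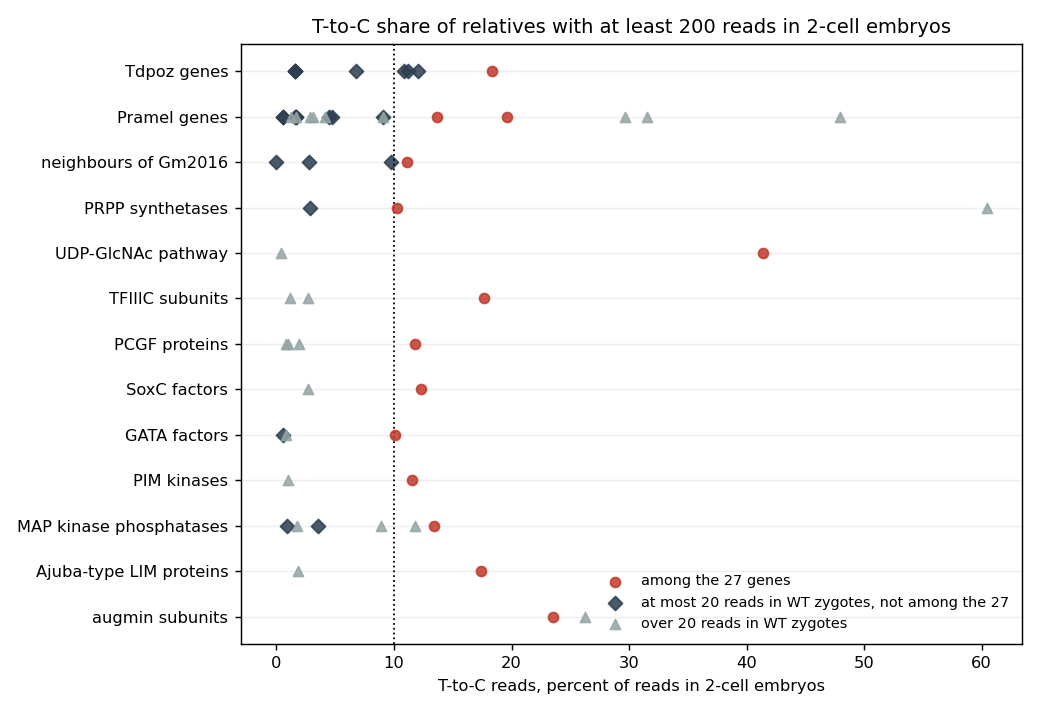
T-to-C share in 2-cell embryos, in percent, of relatives of the 27 genes that had at least 200 reads there, by family or pathway; circles are among the 27, diamonds had at most 20 WT zygote reads but are not among the 27, triangles had more than 20 WT zygote reads, and the dotted line is the 10% limit. Tdpoz and PRAME-like genes spread from near 0 to 47.9%, while the relatives of Uap1, Gtf3c5, Pcgf5, Sox11, Gata1, Pim3 and Jub lie under 3%.

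Metabolism and the processing of glycans are served by 4 genes, with a summed share of 21.3% (interval 16.6% to 26.6%). Uap1 held 234 of their 411 T-to-C reads, and the median share of the 4 was 16.1%. Prps2 (chrX:167346320-167382872) encodes a synthetase of phosphoribosyl pyrophosphate, the sugar phosphate from which purine and pyrimidine nucleotides are built. It had 672 reads in 2-cell embryos, 69 of them T-to-C (10.3%), against 0 in null zygotes and 0 in WT zygotes, an interval of the ratio from 19.6 upward. Prps1, which encodes the same enzyme activity, had 1912 reads in 2-cell embryos, 0 in null zygotes and 1 in WT zygotes, with a 2-cell share of 2.82%. Prps1l3, a related gene, had 2523 reads in 2-cell embryos, 131 in null zygotes and 429 in WT zygotes, with a 2-cell share of 60.4%. Shares within this family thus ran from 2.82% to 60.4%, with Prps2 between.

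Uap1 (chr1:170141223-170174964) encodes the enzyme of the last step to UDP-N-acetylglucosamine, the donor for glycosylation and for O-GlcNAc on nuclear proteins. It had 565 reads in 2-cell embryos, 234 of them T-to-C (41.4%, interval 30.6% to 52.9%), against 0 in null zygotes and 20 in WT zygotes. None of the 20 WT zygote reads had a mismatch. The 2-cell level was 21.7 times that in WT zygotes (interval 7.0 to 113), and the share ranked 27 of 3410. Gfpt1, the entry enzyme of the pathway, had 254 reads in 2-cell embryos, 1 of them T-to-C (0.394%), and 129 in WT zygotes, and Gnpnat1 and Pgm3 had 180 and 38 reads in 2-cell embryos.

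AI464131 (Myorg, chr4:41491847-41503135) encodes a glycosidase. It had 486 reads in 2-cell embryos, 71 of them T-to-C (14.6%), against 4 in null zygotes, all T-to-C, and 14 in WT zygotes. Man2a2 (chr7:80349095-80371483), a Golgi mannosidase that trims N-glycans, had 211 reads in 2-cell embryos, 37 of them T-to-C (17.5%), against 12 in null zygotes and 11 in WT zygotes. Its relative Man2a1 was not gained, with 109 reads in 2-cell embryos, 0 of them T-to-C, and 118 in WT zygotes.

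Matrix, membrane and filament genes numbered 4 and had the highest summed share of the role groups, 27.5% (interval 20.4% to 35.6%), which the share of Pxdn carried: the median of the 4 was 18.5%. Pxdn (chr12:29936642-30017658) encodes peroxidasin, a heme peroxidase that cross-links collagen IV of basement membranes. It had 338 reads in 2-cell embryos, 172 of them T-to-C (50.9%, interval 36.1% to 65.6%), against 10 in null zygotes and 0 in WT zygotes. The share ranked 18 of 3410, and the interval of the ratio of 2-cell embryos to WT zygotes ran from 9.68 upward. None of the 10 reads in null zygotes had a mismatch.

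Btn1a1 (chr13:23456984-23465914), a butyrophilin of the milk fat globule, had 218 reads in 2-cell embryos, 43 of them T-to-C (19.7%), against 0 in null zygotes and 12 in WT zygotes. Syt9 (chr7:107370349-107548656), a calcium sensor of vesicle release, had 225 reads in 2-cell embryos, 39 of them T-to-C (17.3%), against 0 in null zygotes and 4 in WT zygotes. Nes (chr3:87971093-87980451), the intermediate filament protein nestin, had 229 reads in 2-cell embryos, 24 of them T-to-C (10.5%), against 1 in null zygotes and 16 in WT zygotes. These genes are best known from tissues that form long after the 2-cell stage, and each had under 230 reads.

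**Figure D4:**
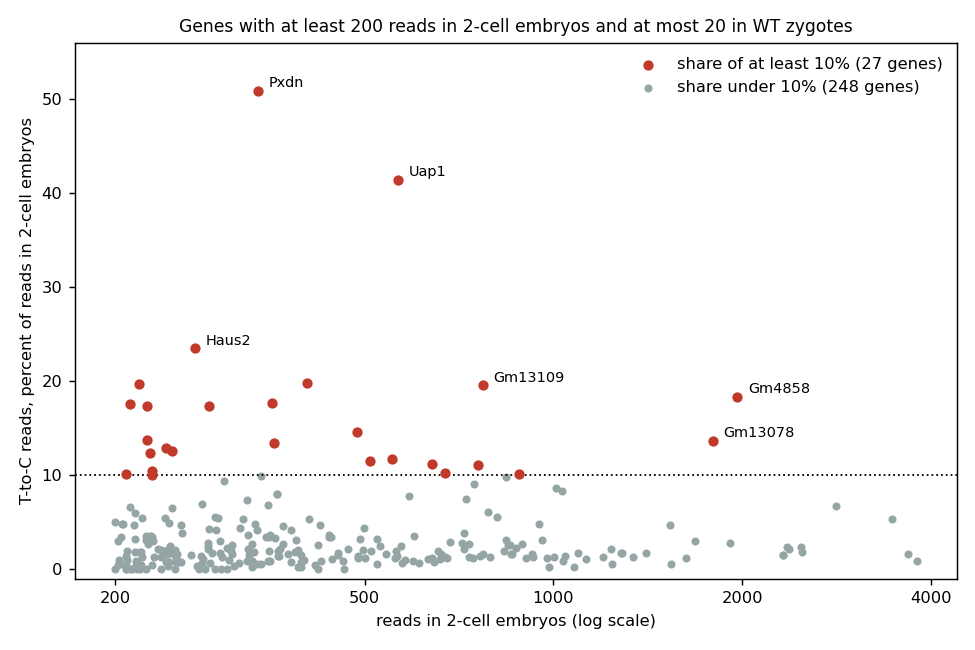
T-to-C share in percent against reads (log axis) in 2-cell embryos, for the 27 genes (large points) and the 248 gained genes with a share under 10% (small points); the dotted line is the limit. Both sets have a median of 356 reads, and Pxdn and Uap1 stand far above the rest.

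A group of 6 genes was formed for transcription, chromatin and ribosome assembly, with a summed share of 14.2% (interval 10.3% to 18.8%). It includes 1700011J10Rik, a long non-coding RNA that overlaps Sp3 and whose own role was not examined. Pcgf5 (chr19:36348329-36460970) encodes a RING-finger subunit of a variant Polycomb complex that ubiquitylates histone H2A. It had 553 reads in 2-cell embryos, 65 of them T-to-C (11.8%), against 11 in null zygotes, 5 of them T-to-C, and 12 in WT zygotes. Pcgf5 was the 1 gene of the 27 that the authors' deposited table calls Positive in null zygotes, on those 5 reads. Of its relatives, Bmi1 had 8254 reads in 2-cell embryos with a share of 1.93% and 2917 in WT zygotes, and Pcgf6 had 986 with a share of 0.811% and 1284 in WT zygotes.

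Mak16 (chr8:31159468-31168724), known in yeast as a factor for the large ribosomal subunit, had 404 reads in 2-cell embryos, 80 of them T-to-C (19.8%, interval 10.5% to 32.4%), against 0 in null zygotes and 9 in WT zygotes. Gtf3c5 (chr2:28566245-28583279), a subunit of TFIIIC, which recruits RNA polymerase III to tRNA genes, had 356 reads in 2-cell embryos, 63 of them T-to-C (17.7%), against 0 in null zygotes and 8 in WT zygotes. Both other TFIIIC subunits with at least 200 reads in 2-cell embryos carried few labelled reads there. Gtf3c2 had 703 reads in 2-cell embryos with a share of 2.70%, and 300 in WT zygotes. For Gtf3c4 the values were 358 with a share of 1.12%, and 26.

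Sox11 (chr12:27334268-27342718), a transcription factor of neural progenitors, had 227 reads in 2-cell embryos, 28 of them T-to-C (12.3%), against 0 in null zygotes and 9 in WT zygotes. Gata1 (chrX:7959260-7976663), the transcription factor of red blood cell and platelet precursors, had 208 reads in 2-cell embryos, 21 of them T-to-C (10.1%), against 0 in null zygotes and 5 in WT zygotes. Both lie near the limits of the rule, and their intervals run down to 3.47% and 2.13%. Of the blood markers, Hba-a1 had 14 reads in 2-cell embryos, 0 in null zygotes and 0 in WT zygotes, Laptm5 had 23, 1 and 42 in the same order, Cd68 had 3, 0 and 1, and Ptprc was at 0 in every column. Gata2 had 337 reads in 2-cell embryos, 2 of them T-to-C (0.593%), against 19 in null zygotes and 8 in WT zygotes. 1700011J10Rik (Sp3os, chr2:72979432-72989249), the single long non-coding RNA, had 229 reads in 2-cell embryos, 23 of them T-to-C (10.04%), against 2 in null zygotes and 14 in WT zygotes. It overlaps Sp3, which had 167 reads in 2-cell embryos with a share of 3.59%.

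Signalling genes numbered 4 and had the lowest summed share among the named roles, 12.7% (interval 8.91% to 17.5%). Trim25 (chr11:88999403-89020294), a ubiquitin ligase of antiviral RNA sensing, had 640 reads in 2-cell embryos, 72 of them T-to-C (11.25%, interval 5.60% to 19.6%), against 0 in null zygotes and 5 in WT zygotes. Pim3 (chr15:88862194-88865726), a serine/threonine kinase, had 510 reads in 2-cell embryos, 59 of them T-to-C (11.6%), against 10 in null zygotes and 5 in WT zygotes. Pim1 had 413 reads in 2-cell embryos, 4 of them T-to-C (0.969%), and 54 in WT zygotes.

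Dusp4 (chr8:34807610-34819894), a nuclear phosphatase that switches off MAP kinases, had 358 reads in 2-cell embryos, 48 of them T-to-C (13.4%), against 10 in null zygotes and 5 in WT zygotes. Other phosphatases of the same family were gained with few labelled reads, Dusp5 with 2 T-to-C reads of 216 (0.926%) and Dusp9 with 8 of 228 (3.51%), both at 0 in WT zygotes. Dusp7 carried a similar share, 1118 of 9461 (11.8%), and had 4089 reads in WT zygotes. Jub (Ajuba, chr14:54567469-54577661), a LIM-domain scaffold that binds LATS kinases of the Hippo pathway, had 282 reads in 2-cell embryos, 49 of them T-to-C (17.4%), against 0 in null zygotes and 0 in WT zygotes. For Jub the interval of the ratio of 2-cell embryos to WT zygotes ran from 8.02 upward.

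Haus2 and Dclre1b act at the spindle and at DNA ends. Haus2 (chr2:120609382-120621560), a subunit of augmin, which branches microtubules in the spindle, had 268 reads in 2-cell embryos, 63 of them T-to-C (23.5%, interval 11.4% to 40.0%), against 0 in null zygotes and 7 in WT zygotes. It overlaps Lrrc57, which had 273 reads in 2-cell embryos with a share of 10.99%, 76 in null zygotes and 196 in WT zygotes. The labels do not say whether counting used the strand, so reads of Haus2 and Lrrc57, of 1700011J10Rik and Sp3, of Mak16 and Tti2, and of 1700123O20Rik and Acin1 may not be cleanly separated where the genes overlap. Haus4 had a share of 26.3% in 2-cell embryos (63 of 240 reads), and T-to-C reads were frequent in zygotes too, 35 of 212 in null zygotes and 22 of 174 in WT zygotes (12.6%). Dclre1b (chr3:103800605-103809387), the exonuclease Apollo of telomere ends, had 246 reads in 2-cell embryos, 31 of them T-to-C (12.6%), against 5 in null zygotes and 19 in WT zygotes. With 19 WT zygote reads its level in 2-cell embryos was 9.95 times that in WT zygotes (interval 2.99 to 56.6).

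No role is given for 1700123O20Rik and Nrip3. 1700123O20Rik (chr14:54686171-54690742) had 241 reads in 2-cell embryos, 31 of them T-to-C (12.9%), against 13 in null zygotes and 7 in WT zygotes. Nrip3 (chr7:109758056-109781545) had 225 reads in 2-cell embryos, 31 of them T-to-C (13.8%), against 0 in null zygotes and 7 in WT zygotes.

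No difference in the summed level of the genes between Pabpn1l-null and WT zygotes was detectable at this depth. Their 88 reads in null zygotes and 193 in WT zygotes gave a scaled ratio of 1.01 (interval 0.474 to 2.03). For the 248 gained genes with a lower share, 736 reads in null zygotes and 1797 in WT zygotes gave 0.906 (interval 0.715 to 1.14). The cap of 20 reads acted on the WT zygote column alone, so neither ratio is independent of the choice of genes. None of the 27 had more than 21 reads in a zygote column, and no single gene could be compared between null and WT zygotes. Over all 7955 genes compared, 9.13% were at least 2-fold higher and 6.37% lower in null zygotes.

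At least 1 read in null zygotes was found for 10 of the 21 genes (47.6%) with 1 to 20 WT zygote reads. In the same range it was found for 84 of 209 gained genes with a lower share (40.2%) and 31.5% of all 6257 genes. Levels within that range were not matched between the sets, so these shares are not a comparison at equal WT zygote level. For genes without a read in WT zygotes the counts were 1 of 6 (Pxdn), 4 of 39 and 2.47% of 9103. T-to-C reads summed to 9 of 88 in null zygotes (10.2%, interval 0.525% to 39.9%) and 4 of 193 in WT zygotes (2.07%, interval 0.00462% to 16.2%). The 9 in null zygotes came from Pcgf5 with 5 and AI464131 with 4, each fewer than the 7 reads counted as 1 molecule. The 4 in WT zygotes were single reads of Pim3, Mak16, 1700011J10Rik and Nes.

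The 27 genes were set beside lists of genes of related function. Of 36 early 2-cell genes tested, 30 were at least 2-fold higher and 2 lower in 2-cell embryos than in WT zygotes, with a median log2 ratio of 4.21 against -0.03 over all genes, of which 23.8% were higher and 25.4% lower. The list holds Gm2016 and Gm13109. Of its 29 genes with at least 200 reads in 2-cell embryos, 7 had a share of at least 10%, against 11.1% of all genes with as many reads, and the median share was 3.25%. Of 33 nucleotide synthesis genes tested, 10 were higher and 7 lower (median log2 ratio 0.37), and of 12 with at least 200 reads, 3 reached that share: Prps1l3, Prps2 and Rrm2. These counts stand beside 23.8% higher, 25.4% lower and 11.1% past the share over all genes. Among 32 immediate early genes tested 25 were higher and 1 lower (median 2.06), against 23.8% and 25.4% of all genes. Of 15 with at least 200 reads in 2-cell embryos, 2 reached the 10% limit, Junb and Dusp4, against 11.1% of all. Ribosome assembly genes, a list without Mak16, had 25 higher and 16 lower of 73 (median 0.36), against 23.8% and 25.4% of all genes, and 0 of 21 reached the 10% limit, against 11.1% of all. The remaining 12 lists hold none of the 27 genes. In each, 0 to 3 of the 2 to 33 genes with at least 200 reads in 2-cell embryos reached the share, against 11.1% of all. Their median log2 ratios ran from -0.14 for H3K4 and H3K27 modifiers (5 higher and 7 lower of 25) to 1.39 for Klf and Sp factors. Of 21 Klf and Sp factors tested, 14 were higher and 1 lower, against 23.8% and 25.4% of all genes.

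What the genes have in common beyond the rule was looked for in the annotation. They lie on 13 chromosomes, with at most 3 on any of them, and 26 of 27 are protein coding. Names of Gm with a number or ending in Rik belong to 7 of the 27 (25.9%) and to 33 of the 248 gained genes with a lower share (13.3%). Names such as AI464131 were not counted. The annotated span had a median of 10193 bases, against 11135 in those 248 genes and 25598 in the 344 genes that had such a share but more than 20 WT zygote reads. Only Gm13078 and Gm13109, and Jub and 1700123O20Rik at 109 kb, lie within 1 Mb of each other.

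RefSeq promoter windows were found for 19 of the 27 genes. The count of CpG over that given by base composition had a median of 0.616 in the 19, against 0.766 in 187 gained genes with a lower share, 0.816 in 267 labelled genes with more than 20 WT zygote reads and 0.389 in all 27025 windows. The 19 fell on both sides: Gm4858 had a ratio of 0, Gm13078 of 0.0779, Gm13109 of 0.0856 and Gata1 of 0.167, and the other 15 lay above 0.2. Ratios under 0.2 were thus found in 21.1% of the 19, in 9.63% of the 187 and in 28.9% of all windows. Median G + C content was 61.0% in the 19 and 60.7% in the 187, against 52.7% in all.

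**Figure D5:**
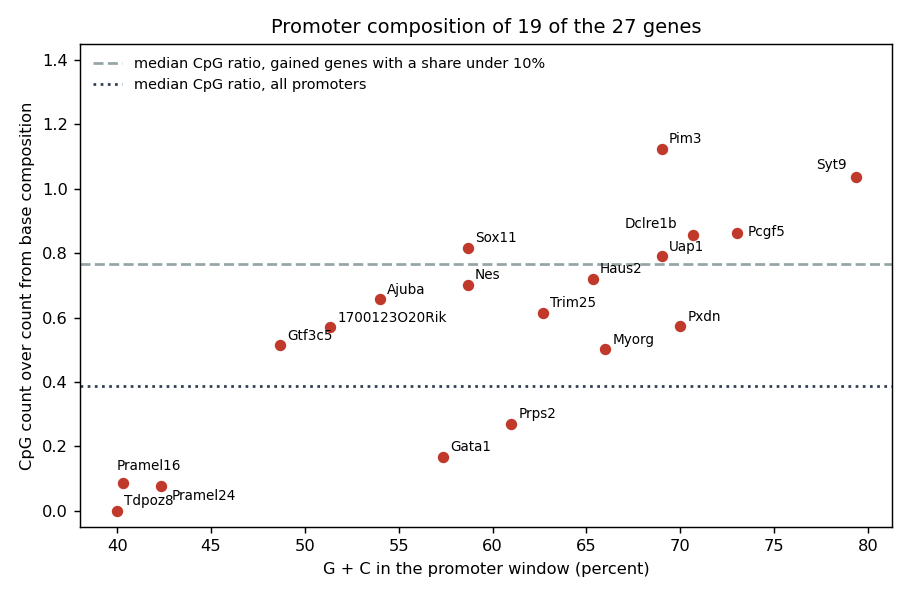
CpG ratio (CpG count over that given by base composition) against G + C content in percent in the promoter window of 19 of the 27 genes, labelled with RefSeq symbols; the dashed line is the median ratio of 187 gained genes with a share under 10% and the dotted line that of all windows. Tdpoz8, Pramel24 and Pramel16 lie together at 40.0% to 42.3% G + C and a ratio under 0.1.

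Motifs were matched as letters on both strands, and a match is no evidence of binding. GGGCGG, the GC box, was in 13 of the 19 windows (68.4%), in 62.0% of the 187 and in 35.9% of all windows. In the printed promoters it occurs 6 times in Uap1 and 3 times in Pxdn. CCAAT was in 9 (47.4%), in 43.3% of the 187 and in 37.9% of all. TATATAA, searched after the sequences had been seen, begins 29 bases before the start in Gm4858 and 30 before it in Gm13078. It was in 10.5% of the 19, 4.81% of the 187 and 3.46% of all windows. TATAAA, whose letters are not contained in TATATAA, was in 1700123O20Rik alone, against 14.2% of all windows. Single windows held CACGTG (Trim25, 7.24% of all windows), GGATTA (Gm4858, 7.16%) and the palindromic NRF1 motif (1700123O20Rik, 0.977%). CCGGAAG (9.12% of all windows), AAGATGGCG (1.49%), the DUX motif (0.0407%), TCAAGGTCA (0.407%), TGACGTCA (1.88%) and the heat shock element (0.529%) were in none of the 19.

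Close to the limits, genes inside and outside had like values. On the share, 1700011J10Rik at 10.04%, Gm11544 at 10.1% and Gata1 at 10.1% were kept, and H47 at 9.94%, Gm1995 at 9.77% and Fam171b at 9.40% were not. On 2-cell reads, Gata1 with 208, Man2a2 with 211 and Btn1a1 with 218 were kept, and Gm20594 with 199, AI854703 with 183 and Dpf2 with 180 were not. All 199 reads of Gm20594 carried a mismatch. On WT zygote reads, Uap1 with 20, Dclre1b with 19 and Nes with 16 were kept, and Prcc with 21, Usp-ps with 21 and Dcdc2c with 22 were not.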

How the data were processed

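RNA of mouse embryos was depleted of ribosomal RNA, alkylated with iodoacetamide and sequenced, per the labels' protocols, and the genome build was mm10, per the submitters' processing notes. The deposited table gives counts of reads and of T-to-C reads made by the authors, with a Positive or Negative call. The sources used here do not name an aligner, a counting tool or a treatment of duplicates, or say whether a column merges both samples of its group.

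The table has 30493 rows and 23259 gene names. Dates stand in place of names in 47 rows, which were left out. Of 928 names with several distinct rows, the row with most reads was kept. The planned edgeR tests need replicates and were not run.

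Low null counts were clumped: of 1295 genes expected from their own WT zygote reads to have 3 to 5 reads, 58.3% had 0. That compares with 2.27% for independent reads, or 7.36 reads per clump. Counting error in those WT zygote reads and differences between the groups were not separated from clumping, so 7.36 is a rough value. In every column 7 reads were counted as 1 molecule, with a floor of 3 molecules (21 reads), although only the null column was examined. Intervals are 95% Clopper-Pearson or conditional binomial intervals (SciPy 1.17.1). They use reads divided by 7 unless stated, not whole counts, and so are not exact. Scaling used TMM factors of edgeR 4.0.16 (0.959 for 2-cell embryos, 1.06 for null zygotes, 0.988 for WT zygotes). Genes with more than 21 reads in a column of a pair were compared at 2-fold. The interval and ratio steps were tested on simulated data, which cannot show whether 7 reads per molecule holds for these columns.

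Sequences and coordinates are from RefSeq on GRCm38.p6, the assembly that mm10 represents, with the first listed window per gene. The genes, the 16 gene lists, the motifs and the alternatives were chosen with earlier results of these data known. Role groups, families and TATATAA were chosen after the members were seen. The rule for named genes took the 12 members with the most 2-cell reads, the 12 with the highest share, the 3 genes nearest to each limit on either side and labelled genes of the lists. The other members and the relatives were added after their values were seen, so that all 27 members are described.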

Additional observations from a re-analysis of the deposited data

How the results depend on the processing

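The number of genes followed the limits of the rule. It was 27 as reported, 55 with at least 100 and 10 with at least 500 reads in 2-cell embryos, 13 with at most 5 and 51 with at most 50 reads in WT zygotes, and 54 with a share of at least 5% and 11 with at least 15%. The summed share of 16.5% became 13.7% as the median over genes. The other 19 alternatives kept every value within its interval or within 1.5 times its count, but some of them could not have done otherwise. Counting 1 read as 1 molecule changes only the interval, and leaving out Gm4858 takes 1 gene from the count. The genes higher past 2-fold stayed at 2392 with no filter and with at least 50 reads. The fold limit over the floor already leaves out genes with fewer 2-cell reads. Those settings are therefore no check of the values. Among the 19, the ratio of 2-cell embryos to WT zygotes was 67.0 with RLE factors, 53.6 with column totals and 60.4 with rows summed per name, and the ratio of null to WT zygotes was 0.892 without 1700123O20Rik. Without Gm4858, Gm13078, Gm13109 and Gm2016 the summed share was 16.8%. The alternatives without Gm4858, without those 4 genes and with the 248 genes in place of the 27 were added after the data were seen. The motif TATATAA was also added then and is not among the alternatives. No paired analysis was possible because the table has 1 column pair per group, and leaving out single samples was not run for the same reason. No gene exceeded 20 reads in a zygote column, in WT zygotes because of the rule, so single genes could not be compared there.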

Other observations

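All limits on reads and share were met by 7 further genes whose names the rule leaves out. Rprl3, an RNase P RNA-like gene, had 2093 reads in 2-cell embryos, 1079 of them T-to-C (51.6%), against 0 in null zygotes and 0 in WT zygotes, a share close to that of Pxdn. Dub2a, a deubiquitinase gene, had 289 reads in 2-cell embryos, 94 of them T-to-C (32.5%), against 0 in null zygotes and 8 in WT zygotes. Zscan4f, of a zinc-finger family that marks 2-cell embryos, had 334 reads in 2-cell embryos, 61 of them T-to-C (18.3%), against 0 in null zygotes and 0 in WT zygotes. Slc19a3, a thiamine transporter gene, had 558 reads in 2-cell embryos, 65 of them T-to-C (11.6%), against 3 in null zygotes and 3 in WT zygotes. Tdpoz1, Tdpoz3 and Tdpoz4 complete the 7.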
